A study of Mus musculus with 34 samples.

Results

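Cultures of the mouse osteosarcoma line MOSJ-Dkk1 that had been starved of fresh medium were compared with growing cultures, both treated with the mismatched control morpholino scrMo. The comparison used 6 of the 34 samples of the series, chosen by their culture labels as the 3 nutritional-stress libraries and the 3 log-phase libraries under scrMo. MOSJ-Dkk1 is a red-fluorescent osteochondral sarcoma line that carries a lentiviral vector expressing human Dkk-1 constitutively from a CMV promoter, so every culture, the growing ones included, carried the construct for this secreted Wnt antagonist. Morpholinos are synthetic antisense molecules that block a chosen RNA, used here in the cell-permeable vivo form, and scrMo is the version of the Dkk-1 morpholino with mismatches. The log-phase scrMo cultures started from 500 cells/cm2 in flasks of 175 cm2, received 5 µM scrMo 24 h later and grew for 6 days with fresh medium every 2 days. The nutritional-stress scrMo cultures had the same seeding and the same 5 µM scrMo, were held at confluence for 48 h and had no medium change for 4 days. Untreated cultures (NT) and cultures given the Dkk-1 morpholino (DkkMo, 5 µM in the methods of the study, while a figure legend names another dose) went through the same pair of states, with 3 libraries in each group. Crowding, exhaustion of the medium and time in culture differed together between log phase and stress and cannot be told apart. The 3 libraries of a group are separate samples in the labels, which do not say whether they were grown on separate occasions, so p-values measure the spread between these samples.

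When cells become crowded and their medium runs down, growth-factor and nutrient signals fall and cells leave the cell cycle, closing down the genes for DNA synthesis and then those for chromosome segregation. Misfolded protein releases the transcription factor HSF1, which binds inverted GAA repeats in front of chaperone genes. NF-kB and interferon signalling drive chemokines and antiviral genes through kappa-B sites and interferon-stimulated response elements. Mitochondrial DNA is transcribed from both strands as long polycistronic RNAs, with tRNA genes standing between the rRNA and protein-coding genes.

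The promoters are shown because their genes stand for the programmes on which the results turn: the stress chaperone gene Hspb1, the neutrophil chemokine gene Cxcl1, the mitotic DNA topoisomerase gene Top2a and the interferon-induced ubiquitin-like gene Isg15. Each is the stretch of 250 bases upstream of the RefSeq start site on GRCm38.p6, written 5′ to 3′ on the strand of the gene. Capitals mark every match, on either strand, to GAANNTTC or TTCNNGAA in Hspb1, to GGANTTTCC in Cxcl1, to CCAAT in Top2a and to GAAANNGAA in Isg15.
Hspb1 (chr5:135887669-135887918, plus strand): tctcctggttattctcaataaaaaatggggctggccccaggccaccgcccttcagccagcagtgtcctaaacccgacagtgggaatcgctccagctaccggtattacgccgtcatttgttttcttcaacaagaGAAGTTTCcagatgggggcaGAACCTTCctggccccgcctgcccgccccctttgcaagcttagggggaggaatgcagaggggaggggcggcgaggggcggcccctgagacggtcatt
Cxcl1 (chr5:90890995-90891244, plus strand): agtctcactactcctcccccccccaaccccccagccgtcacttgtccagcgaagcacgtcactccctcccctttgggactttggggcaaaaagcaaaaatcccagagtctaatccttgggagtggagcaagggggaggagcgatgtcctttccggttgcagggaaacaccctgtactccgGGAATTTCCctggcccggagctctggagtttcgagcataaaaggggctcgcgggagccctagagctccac
Top2a (chr11:99024190-99024439, minus strand): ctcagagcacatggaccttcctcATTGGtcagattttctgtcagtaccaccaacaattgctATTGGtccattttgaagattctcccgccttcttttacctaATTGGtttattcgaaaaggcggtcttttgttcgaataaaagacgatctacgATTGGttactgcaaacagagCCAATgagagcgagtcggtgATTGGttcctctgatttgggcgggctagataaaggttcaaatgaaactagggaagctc
Isg15 (chr4:156200819-156201068, minus strand): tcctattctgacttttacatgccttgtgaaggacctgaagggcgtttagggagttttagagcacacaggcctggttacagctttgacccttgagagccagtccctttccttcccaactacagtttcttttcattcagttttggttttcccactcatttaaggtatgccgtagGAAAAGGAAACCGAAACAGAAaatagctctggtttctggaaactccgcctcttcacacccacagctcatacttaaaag

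The Hspb1 window held 2 matches, Cxcl1 1, Top2a 6 and Isg15 3, those in Isg15 overlapping each other. Among heat shock genes with a value and a window of this length, 6 of 10 held the heat shock element, as did 14.5% of the 27025 genes with a window. CCAAT stood in 21 of 28 mitosis promoters against 37.5% of all, and the cell cycle homology region TTTGAA in 9 of 28 against 18.3%. The kappa-B letters were found in 6 of 18 promoters of NF-kB feedback genes and 2 of 8 of chemokine genes, against 1.25% of all genes. The interferon-stimulated response element stood in 13 of 27 interferon-stimulated genes against 8.18%. The shares over all genes also count genes without a value here, whereas the lists were limited to genes with a value, so the sets compared differ. A match describes the letters in the window and is not evidence that a factor was bound.

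Messenger RNA was sequenced from the 6 cultures after poly-A selection. The libraries held 28.2 to 33.0 M reads on the listed genes in log phase and 25.9 to 35.5 M under stress. The deposited values are variance-stabilized log2 expression, a scale that approaches log2 for abundant genes and compresses differences between low ones. Levels are given here as normalized counts, recovered by reversing that transformation, and differences as stress minus log phase on the deposited scale ± standard error. A gene was called when its Benjamini-Hochberg adjusted p from limma was below 0.05 and its difference exceeded 1.5-fold. Osteoblast markers were present in part: Spp1 (osteopontin), Col1a1, Sparc and Runx2 were abundant, while Alpl averaged 7.68 normalized counts and Bglap 5.48 in log phase. The chondrocyte regulator Sox9 averaged 6059 and the cartilage collagen Col2a1 4.93. The leukocyte antigen Ptprc averaged 9.34 normalized counts in log phase and 5.46 under stress.

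Under scrMo, 726 of 16562 genes rose with nutritional stress (4.38%) and 1040 fell (6.28%). Proliferation genes, inflammatory chemokines and collagens were among the deepest falls, and cytosolic chaperones and mitochondrial RNAs among the steepest rises. Of the 726 genes that rose, 725 had every stress value above every log-phase value, and 1038 of the 1040 that fell were separated in the other direction. Over all genes tested, the groups did not overlap in 62.6%. The median difference over all genes was -0.006. The median value of a library fell by 0.066 from log phase to stress, and with each library centred on its own median 947 genes rose and 845 fell, so the balance of rises and falls depended on the scaling. On the recovered reads with voom, which does not compress low genes, 2272 rose and 2214 fell.

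**Figure D1:**
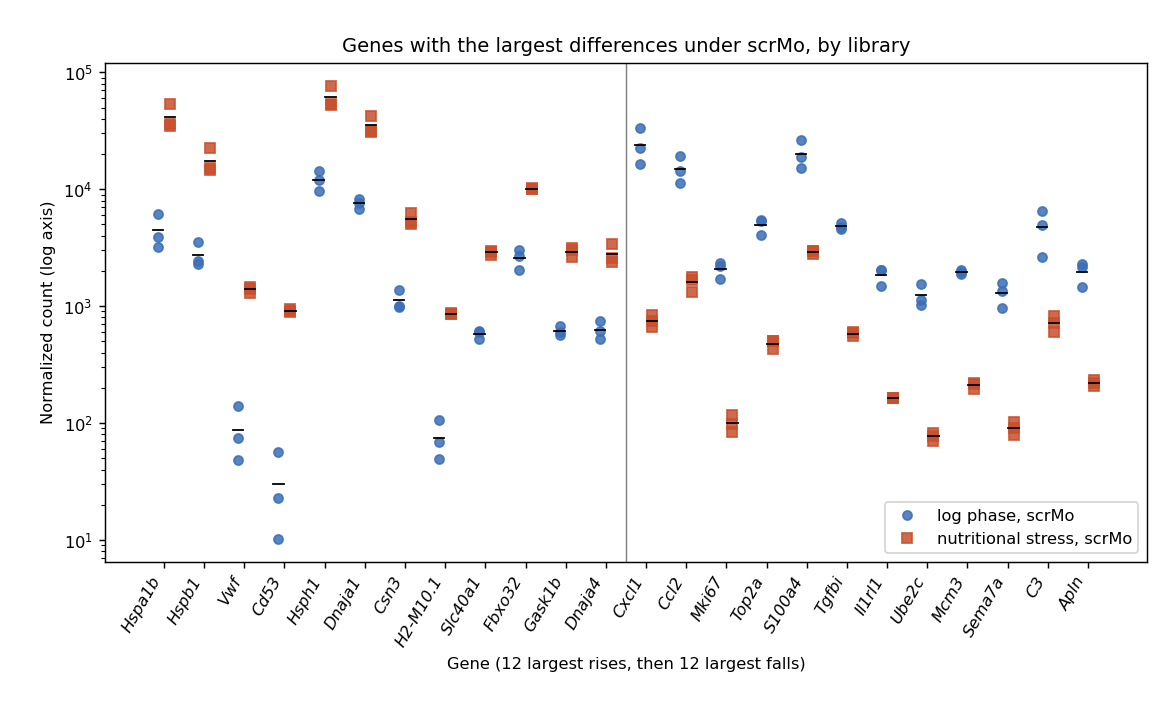
Normalized counts (log axis) of the 12 genes with the largest rises and the 12 with the largest falls among called genes, in each of the 3 log-phase (circles) and 3 nutritional-stress (squares) scrMo libraries, with bars at the group means. The groups do not overlap for any gene shown, which the choice of genes required, and the stress libraries lie closer together than the log-phase libraries for Cd53, Vwf and Cxcl1.

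The cytosolic chaperones rose together, 11 of the 14 heat shock genes with a value rising and none falling, with a median difference of 1.17. Hspb1 (HSP27, a small chaperone, chr5:135887919-135889563) measured 3551, 2427 and 2292 normalized counts in the log-phase libraries and 22603, 14669.6 and 15342 under stress. The stress levels averaged 6.36-fold higher, a difference of 2.55 ± 0.16 (adjusted p = 2.00e-10). The inducible HSP70 gene Hspa1b gave 3883, 6199.9 and 3231 in log phase and 53751, 36148 and 34516 under stress, a difference of 3.16 ± 0.24, although its near-identical neighbour Hspa1a makes the division of reads between the copies uncertain. Hsph1 (HSP110, which recharges HSP70) went from 9609, 14414 and 12059 to 76651, 52964 and 53471. Dnaja1, an HSP40 co-chaperone, went from 6767, 8239.5 and 7689 to 42606, 31594 and 31149.6. Its exons overlap those of Smu1 on the other strand, as the exons of the co-chaperone Dnaja4 (difference 1.77 ± 0.1) overlap Wdr61. In each of these genes the first stress library stood above the other two. Hsp90aa1, the inducible HSP90, rose by 1.46 and the HSP70 co-factor Bag3 went from 3412, 3508 and 2826 to 11732, 8661 and 8849.9, while the constitutive Hsp90ab1 (0.50), Hspa4 (-0.20) and the regulator Hsf1 (-0.30) did not pass the threshold.

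Chaperones of the endoplasmic reticulum rose less, 6 of 19 rising and none falling, with a median of 0.40. Dnajb9, a co-chaperone of BiP, went from 2119, 3212 and 2886 to 7642, 7607 and 7965 normalized counts (1.43 ± 0.13). Hyou1, a nucleotide exchange factor for BiP, rose by 0.85. Of the ATF4 amino acid response, which supplies amino acids when they are short, 1 of 38 genes rose and 12 fell. The one that rose was Atf3, a stress-induced repressor, from 1171, 1781 and 1374 to 5753, 4210.2 and 4383. The glutamine transporter Slc1a5 fell from 6996, 5896 and 6523 to 2354, 2392 and 2434, and the serine synthesis enzyme Psat1 (-1.19) and the leucine transporter subunit Slc7a5 (-1.13) fell as well. Without the first log-phase library 3 of the list rose and 13 fell.

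All 35 mitosis and spindle genes with a value fell, with a median of -1.44. Mki67, the proliferation antigen Ki-67, measured 2345, 1697 and 2211 normalized counts in log phase and 84.0, 116 and 98.2 under stress, 20.9-fold lower (-2.85 ± 0.14, adjusted p = 6.11e-12). Top2a, which untangles sister chromatids (chr11:98992943-99024189) and whose promoter is printed above, fell from 5361, 4069 and 5415 to 432, 503 and 501. Ube2c, the ubiquitin-conjugating enzyme of the anaphase-promoting complex, fell from 1549, 1019 and 1136 to 70.0, 77.9 and 82.6, and its exons overlap Tnnc2 on the other strand. Anln, a scaffold of the contractile ring, fell by 2.13. In these genes every stress library lay several-fold below every log-phase library. The smallest fall of the list was that of the phosphatase gene Cdc25c at -0.68.

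Of 39 DNA replication genes, 24 fell and none rose, with a median of -0.80. The replicative helicase subunit Mcm3 fell from 2027, 1977 and 1895 to 195, 217 and 219 normalized counts (-2.30 ± 0.072), and Mcm5 from 1103, 951 and 999 to 72.6, 79.7 and 86.5. Uhrf1, which guides maintenance DNA methylation, fell by 1.63 and the leading-strand polymerase Pole by 1.59. Cyclin D1 (Ccnd1), which opens G1, fell from 28728, 27973 and 28519 to 10749.6, 12146 and 11678. The list of 15 cell cycle inhibitors and arrest genes, which also holds cyclin D1, gave 2 rises and 3 falls, cyclin D1 being among the falls. The anti-proliferative Tob1 rose by 0.88 and the cyclin-dependent kinase inhibitor Cdkn1b (p27) by 0.63, while the inhibitor Cdkn2c fell by 0.98 and Gas1 by 0.66. Gas1 lost its call with array weights (-0.51) and without the first log-phase library (-0.54).

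Inflammatory genes were the other large group of falls. Cxcl1, a chemokine that recruits neutrophils (chr5:90891241-90893115), had the largest fall on the deposited scale, from 33296, 16469 and 22589 normalized counts in log phase to 657, 842 and 749 under stress, 32.2-fold (-4.52 ± 0.16, adjusted p = 1.95e-13). Ccl2, which recruits monocytes, fell from 19313, 11377 and 14270 to 1316, 1782 and 1681, its neighbour Ccl7 from 11978, 6953 and 8285 to 1870.1, 1989.6 and 1991, and Ccl9 from 357, 205 and 292 to 19.1, 23.8 and 7.78. The log-phase levels varied, the first library being highest and the second lowest for these chemokines, but stayed far above the stress levels. Of 14 chemokine ligands with a value (of 27 listed), 7 fell and none rose. Of 23 NF-kB feedback and acute-phase genes, 15 fell and none rose, with a median of -0.68. The NF-kB inhibitor Nfkbia, itself an NF-kB target, went from 6547, 3340.1 and 4617 to 1199, 1188 and 1185. Complement C3 fell from 6548, 2618 and 4978 to 817, 718 and 599.6, the acute-phase protein Saa3 from 1833, 873 and 1124 to 386, 159 and 95.2, and the leukocyte adhesion molecule Vcam1 from 2872, 2491 and 3199 to 976, 1048 and 1033.

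Il1rl1, the interleukin-33 receptor, fell from 2027, 1478 and 2028 to 164, 163 and 164, and Sema7a, a membrane-anchored semaphorin, from 1339, 955 and 1568 to 102, 79.7 and 91.4.

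Matrix genes fell too. Of 28 collagen and collagen-processing genes, 12 fell and 1 rose, with a median of -0.56. Col8a1, a short-chain network collagen, measured 7062, 6258 and 8063 in log phase and 1203, 1445 and 1238 under stress (-2.23 ± 0.091). The fibrillar collagen genes Col3a1 (1797, 1459 and 1869 against 351, 313 and 335) and Col1a1 (12158, 6476 and 7535 against 2742, 2774 and 2682) fell by 1.75 and 1.53. Pcolce, an enhancer of procollagen cleavage, fell from 8292, 4408 and 5652 to 2064, 2104 and 1933. Col12a1, which binds to fibrils, was the member that rose, by 0.64. Tgfbi, a matrix adhesion protein induced by TGF-beta, fell from 4785, 4566 and 5152 to 556, 604 and 584. S100a4, a calcium-binding protein of motile cells whose annotated exons overlap Gm42674 on the same strand, fell from 26215, 15189.8 and 18967 to 2934, 2799.8 and 2947, and Apln, the secreted peptide apelin, from 2301, 1452 and 2149 to 232, 221 and 206.

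Among TGF-beta and BMP genes 3 of 25 rose and 7 fell, the BMP antagonist Grem1 going from 4553, 5192 and 5759 to 980.2, 947 and 917 and the TGF-beta binding protein Ltbp2 going from 5444, 2977 and 4645 to 773, 863 and 716, while the inhibitor of DNA binding Id2 rose by 1.51. Of 22 matrix proteases and inhibitors 6 fell and none rose, with Adam19 at 964, 781 and 1128 and 48.4, 53.2 and 48.6, the protease inhibitor Timp1 at 2792, 1567 and 1902 and 283, 278 and 287, Adam8 at 2007, 1589 and 2136 and 325, 369 and 333, and Timp2 falling by 0.96. Of 28 SRF and YAP contractile targets 7 fell and none rose, among them smooth-muscle actin Acta2 (679, 269 and 383 against 52.2, 50.4 and 59.3), the YAP target Ankrd1 (-1.15), the receptor tyrosine kinase Axl (-1.08) and Fhl2 (-0.67, not called with array weights, at -0.58). Without the first log-phase library 4 of the list fell.

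**Figure D2:**
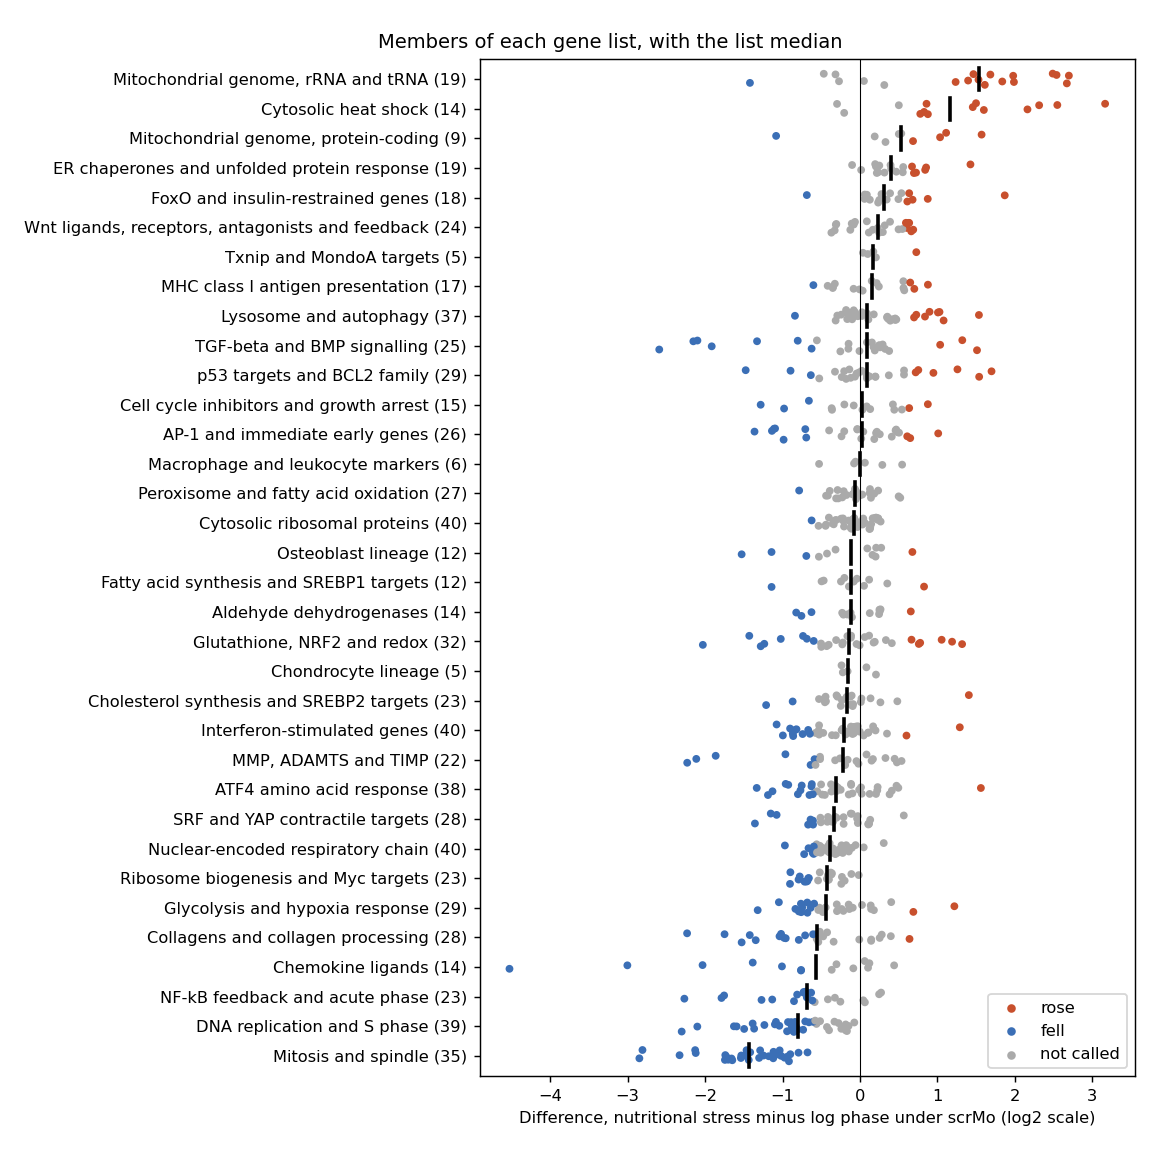
Difference between nutritional stress and log phase under scrMo (log2 scale) for every member with a value of each gene list with at least 5 such members, the number in brackets, in red where called higher, blue where called lower and grey where not called, with a black bar at the list median. The mitosis list lies wholly below 0 with its median at -1.44, the heat shock list has its median at 1.17, and the ribosomal protein list stays around 0 at -0.080.

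Genes that insulin and growth factors hold down through FoxO were among the rises, 5 of 18 rising and 1 falling, with a median of 0.32. Fbxo32 (atrogin-1), a ubiquitin ligase of protein breakdown, went from 2035, 3035 and 2691 to 10026, 9949 and 10273 normalized counts (1.87 ± 0.094). Pdk4, which keeps pyruvate out of the citric acid cycle, rose by 0.87 and the insulin receptor substrate Irs1 by 0.68 (not called with array weights, at 0.58), whereas superoxide dismutase Sod2 fell by 0.69. Without the first log-phase library 3 of the list rose.

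Of 29 p53 and BCL2-family genes 6 rose and 3 fell. The pro-apoptotic Bmf rose from 80.5, 137 and 128 to 788, 869.7 and 877 and Bcl2l11 (BIM) from 642, 779 and 835 to 2327, 2089.5 and 2061, Trp53inp1 rose by 1.54, and the death receptor Fas fell from 1311, 572 and 1022 to 169, 202 and 195. Lysosome and autophagy genes gave 8 rises and 1 fall among 37, with a median of 0.091. The lysosomal hydrolase Gla went from 1569, 1683 and 1487 to 6006, 4726 and 4671, the calcium channel Mcoln1 rose by 1.08, the protease Ctsd by 1.03 and the sialidase Neu1 by 1.01.

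Metabolic and biosynthetic lists mostly leaned down. Of 29 glycolysis and hypoxia genes 11 fell and 2 rose, with a median of -0.44. Without the first log-phase library 3 fell and the median was -0.25, and without the second the median was -0.67. The glycolytic enzymes Eno1 (42797, 24099.9 and 32249.7 against 13023, 12589 and 12513) and Pgk1 (24596, 12659 and 19542 against 9119, 8463 and 8508) fell, Pgam1 fell by 0.83 (not called with array weights, at -0.57), while the angiogenic factor Vegfa rose from 19230.5, 18683 and 20979 to 43407, 46324 and 48405 and Gapdh rose by 0.69. Ribosome biogenesis and Myc targets gave 9 falls of 23 and no rise, with Bop1 at -0.90, the polyamine enzyme Odc1 at -0.90, and the nucleolar proteins Dkc1 and Nop58 at -0.79 and -0.78. Nuclear genes of the respiratory chain gave 6 falls of 40 and no rise, Ndufa4 falling most at -0.97, followed by Ndufa5 at -0.72, Uqcrq at -0.66 and the ATP synthase subunit Atp5c1 at -0.61. Uqcrq was not called without the first log-phase library (-0.54), nor was Atp5c1 with array weights (-0.53), with centred libraries (-0.55) and without the first log-phase library (-0.52). The list had 2 falls without the first log-phase library and 10 without the third.

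Of 23 cholesterol genes 1 rose and 2 fell, the rise being Insig1, the sterol-sensing brake on SREBP, from 2751, 2259 and 2726 to 6442, 7808 and 7638. Fatty acid synthesis gave 1 rise, Acss2 (0.83), and 1 fall, the elongase Elovl6 (-1.14), of 12, and peroxisome and fatty acid oxidation 1 fall, Hadha (-0.79), of 27. Over all genes tested 4.38% rose and 6.28% fell, so these few calls do not set the cholesterol, fatty acid and peroxisome lists apart. Of 32 glutathione and redox genes 6 rose and 8 fell, the metallothionein Mt2 going from 21604, 11762 and 12730.5 to 3164, 3386 and 3706, Mt1 falling by 1.28, the pentose phosphate enzyme G6pdx going from 5029, 4524 and 4709.9 to 1467, 1635 and 1675 and glutathione transferase Gstm1 from 5399, 4335 and 3932 to 11308, 11492 and 12291. Txnip, a glucose-responsive brake on glucose uptake whose exons overlap Gm15441 on the other strand, rose by 0.73 ± 0.28 (adjusted p = 0.031). It was the one called member of the 5 MondoA targets and lost its call when any 1 of the log-phase libraries 2 and 3 or the stress libraries 1 and 2 was left out.

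Immediate early genes split, 3 of 26 rising and 7 falling. The AP-1 subunit Fosl1 fell from 32678, 23724 and 23440.3 to 10107, 9921 and 10144, and Egr1 and Egr2, which growth factors induce, fell by 1.11 and 1.10, while the ERK phosphatase Dusp4 rose by 1.01. Of 24 Wnt pathway genes with a value (of 41 listed) 6 rose and none fell. These were the ligand Wnt9a (90.7, 105 and 99.2 against 249.5, 279 and 288), the receptors Fzd4 (0.63), Fzd5 (0.66) and Fzd7 (0.63), the antagonist Dkk2 (0.61) and beta-catenin, Ctnnb1 (0.59). Fzd4 was not called with array weights (0.55) and without the first log-phase library (0.51), nor was Fzd5 with array weights (0.57) and without the first log-phase library (0.54). Without the first log-phase library 2 of the list rose. The feedback target Axin2 was low, averaging 20.3 in log phase and 48.9 under stress. Dkk1 was not analysed here.

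Of 14 aldehyde dehydrogenases 1 rose and 3 fell, with the mitochondrial folate enzyme Aldh1l2 at -0.82, Aldh7a1 at -0.76, the proline synthesis enzyme Aldh18a1 at -0.63 and Aldh6a1 at 0.66. Aldh18a1 lost its call with centred libraries (-0.56) and after quantile normalization (-0.53), and Aldh6a1 without the first log-phase library (0.56). Aldh1a1 measured 36.7, 34.9 and 38.1 in log phase and 39.5, 16.5 and 26.2 under stress, overlapping groups with a difference of -0.10 ± 0.057 (adjusted p = 0.13).

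Of 12 osteoblast genes 1 rose and 3 fell. Runx2, the lineage regulator, rose from 2220.1, 2259 and 2561 to 3741, 4004 and 3991, Spp1 fell from 116256, 90890.3 and 120509 to 67301, 64781 and 68830.2 (-0.69, not called with array weights, at -0.55) and the osteoclast decoy receptor Tnfrsf11b from 375, 367 and 531 to 87.8, 87.1 and 80.7. None of 5 chondrocyte genes was called, Sox9 at 0.083. Markers of other cell types were sparse. Vwf, the endothelial clotting factor, rose from 47.9, 139.5 and 74.2 to 1456, 1414 and 1298 (15.9-fold, 2.45 ± 0.089), but the other endothelial marker with a value, Pecam1, differed by 0.19 and was not called, and 2 of 7 had a value. Cd53, a leukocyte tetraspanin, rose from 10.2, 56.3 and 23.1 to 886, 940.3 and 901 (30.5-fold, 2.40 ± 0.086), while none of the 6 leukocyte markers with a value was called and the list mean stayed at 8.68 to 8.82 in log phase and 8.75 to 8.79 under stress on the deposited scale. None of 3 muscle markers was called, and of 2 adipocyte markers Pparg rose by 0.70.

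The remaining large rises belonged to none of the gene lists above. Csn3, which encodes kappa-casein, measured 1005, 1369 and 987 in log phase and 6253, 5057 and 5286 under stress (2.06 ± 0.16). Slc40a1, the iron exporter ferroportin, went from 523, 606 and 607 to 2763, 2990.4 and 2889, 4.98-fold. Gask1b, a Golgi-associated kinase-like protein, went from 569.8, 679.5 and 601 to 2619, 3114 and 2998. H2-M10.1, a class Ib histocompatibility gene of a multigene family whose reads could be divided among relatives, went from 48.9, 107 and 68.2 to 850.4, 852 and 876. The 3 stress libraries lay within a narrow range for H2-M10.1 and Slc40a1, while those of Csn3 ran from 5057 to 6253 and those of Gask1b from 2619 to 3114.

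Mitochondrial RNA took a larger share of the reads under stress. It made up 2.35 to 2.47% of reads in log-phase scrMo libraries and 5.30 to 5.80% in stress scrMo libraries, and the rRNA genes 0.268 to 0.39% and 1.65 to 1.95%. Of 19 rRNA and tRNA genes 13 rose and 1 fell, with a median of 1.53, and of 9 protein-coding genes 4 rose and 1 fell. The small rRNA mt-Rnr1 (chrM:70-1024) measured 32134, 41671 and 30732 normalized counts in log phase and 241484, 223218 and 200965 under stress (2.67 ± 0.1), and the large rRNA mt-Rnr2 58097, 82079 and 59879 and 399541, 376089 and 338838. The tRNA genes mt-Tt (2.70 ± 0.074) and mt-Tp (2.54 ± 0.093) rose similarly. Among complex I subunits mt-Nd2 rose from 79928, 83975 and 77626 to 246760, 236100 and 235524 and mt-Nd1 and mt-Nd6 by 1.03 and 1.11, whereas the cytochrome oxidase subunit mt-Co1 fell from 185611, 166065 and 197841 to 84925, 86447 and 86986. The tRNA gene mt-Ts1, which overlaps the end of mt-Co1 on the other strand, fell by 1.42. The libraries were poly-A selected and the strand setting of the counting was not stated, so reads from overlapping or neighbouring mitochondrial genes cannot be told apart. The part of the mitochondrial share in the other results was not tested.

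**Figure D3:**
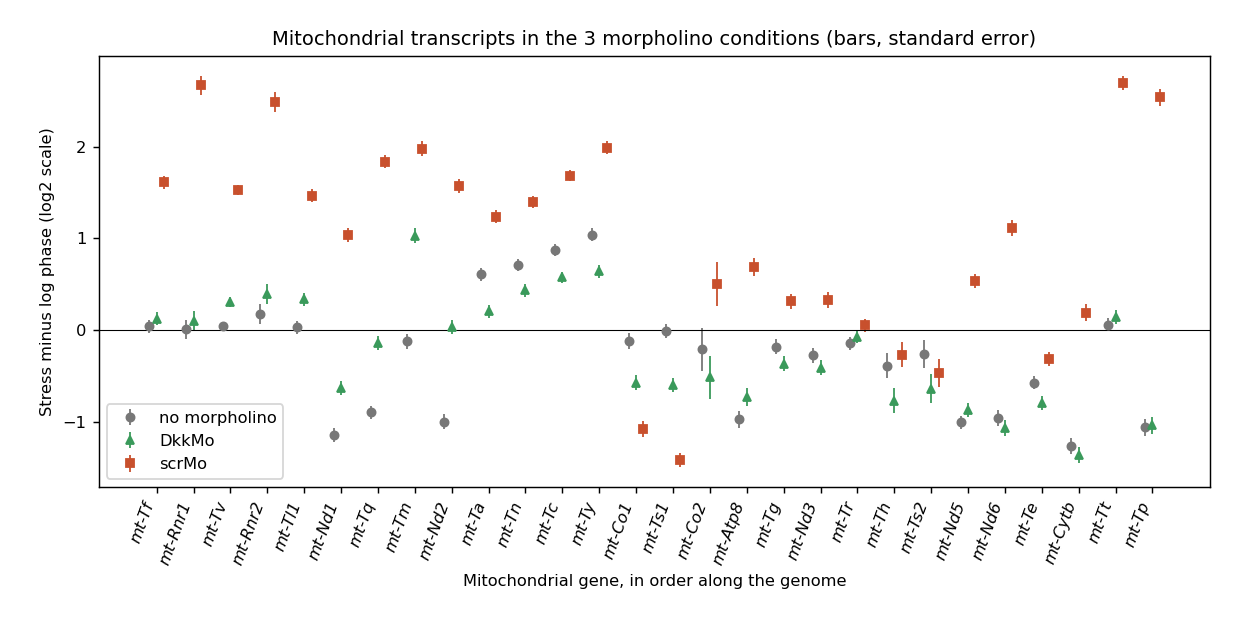
Difference between nutritional stress and log phase (log2 scale, bars standard error) for each mitochondrial gene with a value, in order along the mitochondrial genome, under no morpholino (circles), DkkMo (triangles) and scrMo (squares). From mt-Tf to mt-Nd1 the scrMo differences run from 1.03 to 2.67, while those without morpholino run from -1.15 to 0.18.

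The mitochondrial rises under scrMo exceeded those of the other cultures. The effect of stress under scrMo minus its effect without morpholino was 2.66 ± 0.15 for mt-Rnr1 (adjusted p = 1.90e-10) and 2.57 ± 0.11 for mt-Nd2. Without morpholino 4 of the 19 rRNA and tRNA genes rose and 2 fell, and under DkkMo 2 rose and 5 fell. Of the 9 protein-coding genes 6 fell without morpholino and 5 under DkkMo, with none rising in either. The effect of stress was more positive under scrMo than without morpholino for 17 of the 19 rRNA and tRNA genes, a difference called for 13. Against DkkMo it was more positive for 18, called for 14. Mitochondrial reads made up 1.54 to 1.67% of stressed libraries without morpholino and 1.74 to 1.88% under DkkMo. The rRNA share of the growing scrMo libraries already stood above the 0.0706 to 0.0819% of growing libraries without morpholino.

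Over all genes, the effect of stress differed between scrMo and no morpholino in 920 genes where it was more positive under scrMo (5.55%) and 890 where it was more negative (5.37%). Against DkkMo the numbers were 469 (2.83%) and 144 (0.869%). With libraries centred on their medians the splits became 675 and 1272 against no morpholino and 318 and 281 against DkkMo, and after quantile normalization the DkkMo split became 399 and 189. The 2 differences share the scrMo libraries and are not independent. On its own, stress called 1361 rises (8.22%) and 1639 falls (9.9%) without morpholino, and 1034 (6.24%) and 1692 (10.2%) under DkkMo. Of the rises under scrMo, 376 were also called without morpholino, 51.8% of the scrMo rises and 27.6% of those without morpholino, and of the falls 659, 63.4% and 40.2%. For DkkMo the shared rises numbered 518 (71.3% and 50.1%) and the shared falls 870 (83.7% and 51.4%). Across genes, which are not independent replicates, the scrMo effect had a Pearson correlation of 0.67 with the effect without morpholino and 0.85 with that under DkkMo, over 16562 genes.

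**Figure D4:**
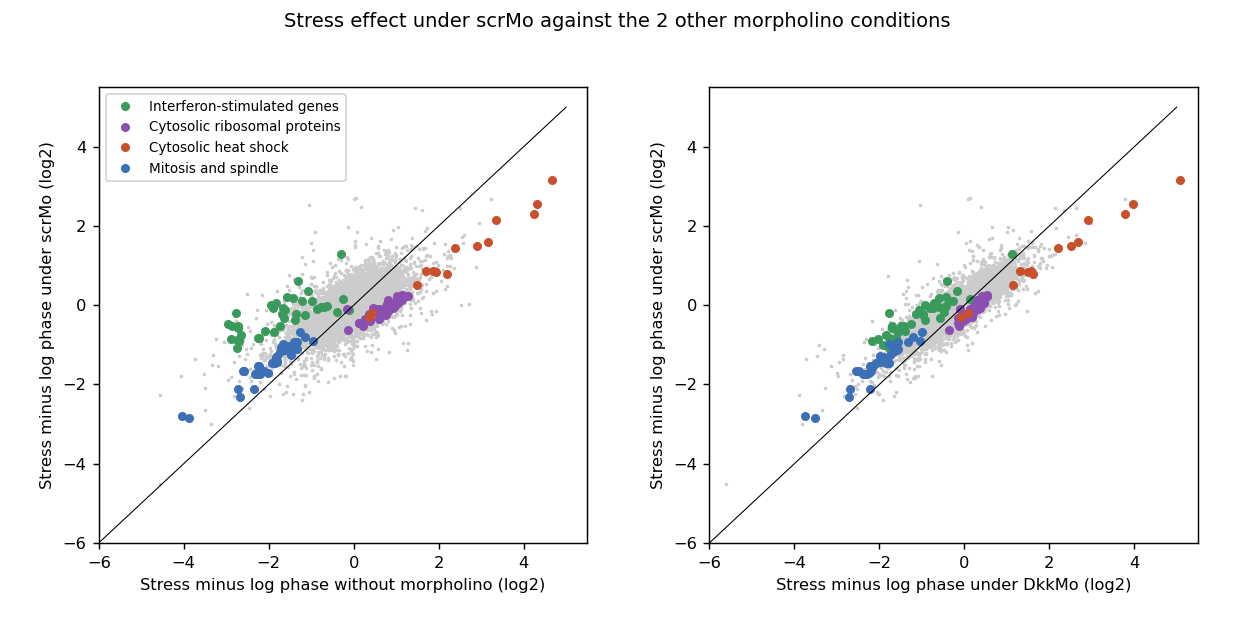
Stress effect (log2 scale) of every gene under scrMo, vertical, against no morpholino, left, and DkkMo, right, with the line of equal effects and 4 gene lists in colour. Interferon-stimulated genes lie mostly above the line, with medians of -0.20 under scrMo and -1.66 without morpholino, and heat shock genes mostly below it at 1.17 against 2.29.

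Interferon-stimulated genes differed between the culture types. Under scrMo 10 of 40 fell and 2 rose, whereas 36 fell without morpholino and 28 under DkkMo. The effect under scrMo was more positive than without morpholino for 39 of 40, a difference called for 36. Against DkkMo it was more positive for 38 of 40, called for 28. The list mean on the deposited scale was 9.89 to 10.08 in log-phase and 9.69 to 9.81 in stressed scrMo libraries, 11.01 to 11.09 and 9.32 to 9.40 without morpholino, and 10.51 to 10.67 and 9.61 to 9.68 under DkkMo. The log-phase scrMo libraries were thus lower than the other growing cultures and the stressed scrMo libraries slightly higher than the other stressed ones.

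Oas2, an antiviral oligoadenylate synthetase, measured 1824, 1367 and 2097 and 1165, 1256 and 1112 under scrMo and averaged 6630.0 ± 557 and 627 ± 92.8 (SD, n = 3) without morpholino, a difference between effects of 2.48 ± 0.23 (adjusted p = 9.23e-08). Ifit3b, another interferon-stimulated gene, measured 798, 448 and 606 and 489, 585 and 442, overlapping groups, with a difference between effects of 2.58 ± 0.15. Isg15, whose promoter is printed above, fell from 1687, 1379 and 1462 to 591, 592 and 555, by 1.08 under scrMo, with -2.75 without morpholino. The transcription factor Irf1 fell from 4944, 1769 and 3076 to 1319, 1400.3 and 1414, a call lost with array weights (-0.54). Rsad2 (viperin) rose under scrMo from 479, 468 and 483 to 1413, 1772 and 1423. Gbp9, a guanylate-binding GTPase whose exons overlap Gbp4 and Gbp8, rose from 155, 172 and 170.4 to 647, 738 and 649 under scrMo and had a difference of -1.21 without morpholino. Under DkkMo Gbp9 rose as well, by 0.69, and its scrMo effect minus its DkkMo effect (0.53) was not called.

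Class I antigen presentation genes gave 3 rises and 1 fall among 17 under scrMo, against 9 falls without morpholino. The effect was more positive under scrMo than without morpholino for 17 of 17, a difference called for 12. Under DkkMo 1 rose and 7 fell, and 2 of the 17 differences from DkkMo were called. Under scrMo 6 rose and none fell without the first log-phase library, and 5 rose without the first stress library. Nlrc5, the class I transactivator, rose from 534, 655 and 688 to 1333, 1412 and 1329.5, the peptide transporter Tap2 by 0.70 and H2-Q4, of a multigene family, by 0.65, while the proteasome activator Psme2 fell by 0.60, a call lost with array weights (-0.54), with centred libraries (-0.54), after quantile normalization (-0.53) and without the first log-phase library (-0.52). Cytosolic ribosomal protein genes differed in the other direction. Under scrMo 1 of 40 fell (Rpl15, -0.62) and none rose, while 29 rose without morpholino. The effect was lower under scrMo than without morpholino for 39 of 40, a difference called for 35. Under DkkMo limma called 0 of 40 at the 1.5-fold limit, with a median of 0.22. Of these 40, 20 had an adjusted p below 0.05 and 23 an unadjusted p below 0.05. The difference between scrMo and DkkMo was called for 0 of 40 as well, with a median of -0.30. For this difference 4 had an adjusted p below 0.05 and 24 an unadjusted p below 0.05. Voom called 0 in both comparisons. The list mean was 15.07 to 15.43 and 15.07 to 15.16 under scrMo and 14.90 to 14.99 and 15.61 to 15.74 without morpholino, so the scrMo groups overlapped and the untreated ones did not. The Rpl15 call was lost with array weights (-0.58), with centred libraries (-0.56), after quantile normalization (-0.54) and without the first log-phase library (-0.55).

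**Figure D5:**
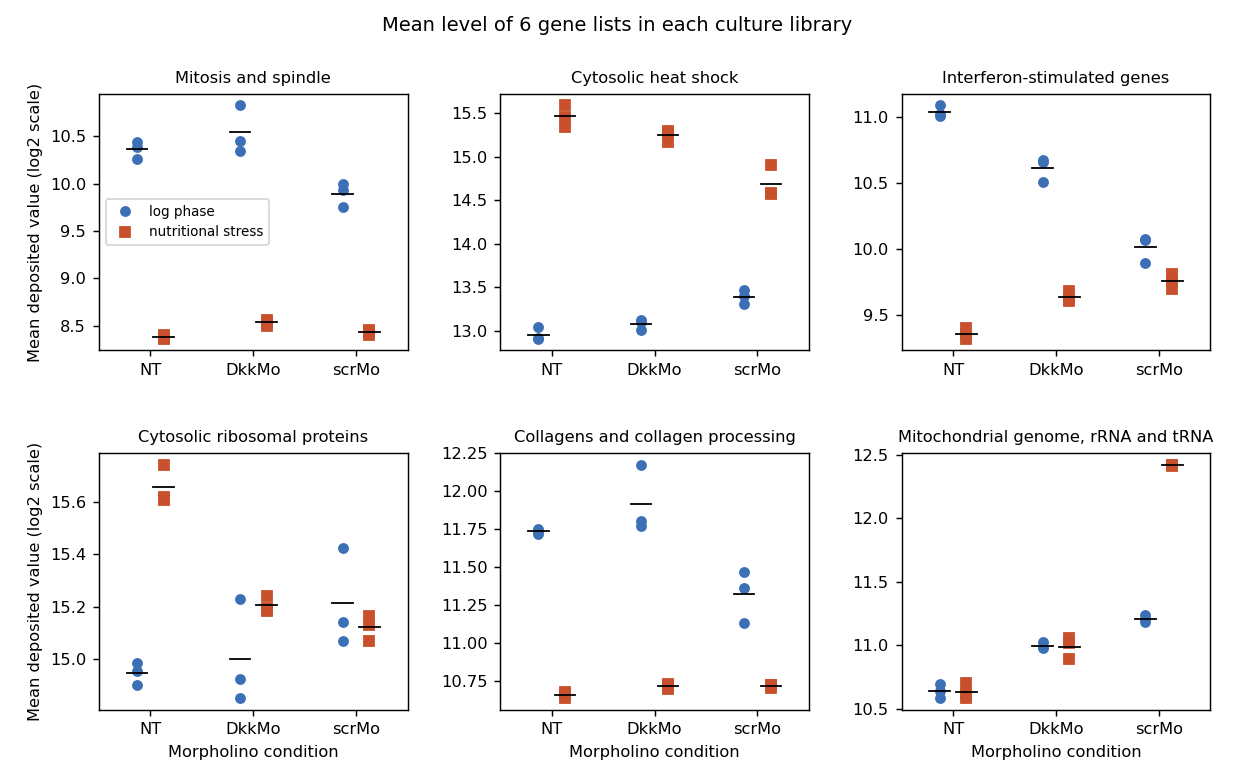
Mean deposited value (log2 scale) of 6 gene lists in each of the 18 culture libraries, in log phase (circles) and nutritional stress (squares), by morpholino condition, with bars at group means. The stressed scrMo libraries all lie at 12.42 for mitochondrial rRNA and tRNA against 10.58 to 10.70 without morpholino, and in log phase 9.89 to 10.08 for interferon-stimulated genes against 11.01 to 11.09.

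The heat shock response was smaller under scrMo than in the other cultures. For 14 of 14 genes the effect was lower than without morpholino, all 14 differences being called. It was also lower than under DkkMo for 14 of 14, with 11 called. The list mean rose from 13.31 to 13.47 to 14.57 to 14.91 under scrMo, from 12.91 to 13.04 to 15.34 to 15.59 without morpholino and from 13.01 to 13.13 to 15.17 to 15.29 under DkkMo, so scrMo cultures started higher and ended lower. The difference between effects was -1.78 ± 0.23 for Hspb1 against no morpholino and -1.43 ± 0.23 against DkkMo. Cryab, a small chaperone, measured 6604, 5639 and 5143 in log phase and 6477, 4544 and 4633 under stress, overlapping groups, while its effect was 1.93 without morpholino and 1.47 under DkkMo, and its exons overlap Hspb2 on the other strand. The fall of mitosis genes was shallower as well, the difference being called for 10 and 15 of 35 genes. The list mean in stressed libraries was 8.40 to 8.45 under scrMo, 8.36 to 8.40 without morpholino and 8.50 to 8.56 under DkkMo. In growing libraries it was 9.75 to 9.99, 10.26 to 10.44 and 10.34 to 10.83.

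Other genes differed in the size or the sign of the effect. The phosphodiesterase Pde8b (471, 568 and 463 and 599.6, 496 and 466) and the prolactin-family gene Prl2c3 (26802, 29805 and 26149.6 and 30127, 25736 and 27513), a gene with near-identical relatives, did not pass the threshold under scrMo but had effects of 2.72 and 2.53 without morpholino. The ERK phosphatase Dusp5 fell from 13270.5, 11002 and 13130.4 to 6402, 4769 and 5425 and the growth factor Bmp7 from 4677, 3999 and 4551 to 2201, 2039 and 2153 under scrMo, against rises of 1.25 and 1.28 without morpholino. Against DkkMo, Txnip had a difference between effects of 2.51 ± 0.39 (adjusted p = 1.83e-04), with an effect of -1.79 there. The neutrophil chemokine Cxcl5 (311, 134 and 246 and 54.7, 26.6 and 20.4), Acta2 and the secreted Igfbp7 (1571, 683 and 955 and 401, 327 and 311), whose exons overlap Polr2b on the other strand, fell under both, less under scrMo, with differences of 2.41 ± 0.19, 2.37 ± 0.22 and 2.20 ± 0.22.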

How the data were processed

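Per the labels and the methods of the study, BGI sequenced oligo-dT selected RNA as 150-base read pairs. According to the submitters' processing notes the authors used HISAT2 2.1.0, SAMtools 1.9, featureCounts from Subread 2.0.0 and DESeq2 on GRCm38, and the authors deposited variance-stabilized log2 values for the cultures. The strand setting, the handling of reads with several matches and the rule by which genes were kept were not given in the sources used here. The table holds 16576 rows, of which the last 14 were left out, and a second table, of tumours, was not used. The deposited log2 values were reversed to normalized counts with the lowest value (7.20) as the floor, and in every library all values came out as whole reads to within 0.01. A normalized count of 10 corresponds to 7.57 on the deposited scale, 100 to 8.36 and 1000 to 10.3.

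limma 3.58.1 in R 4.3.3 fitted 1 mean per group to the deposited values of all 18 culture libraries in 6 groups, with trended empirical Bayes variances. Contrasts were stress minus log phase under scrMo, and the same difference minus that under NT or DkkMo. p-values were adjusted over 16562 genes by the Benjamini-Hochberg method. Genes with an adjusted p below 0.05 and over 1.5-fold were called. The fit was also run on simulated counts drawn with the same spread beyond counting noise for every gene. Real genes differ in that spread, so the run gives no error rate for the calls reported here. With 3 libraries against 3, an exact two-sided permutation test of 1 gene cannot go below p = 0.1, and none was run.

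Named genes were the 12 largest rises and 12 largest falls among called genes whose groups did not overlap, leaving out Gm and Rik names, pseudogenes and mitochondrial genes, up to 4 called members of each of 37 lists with the members that define the group, the 4 most positive and 4 most negative differences between effects, and Aldh1a1. Further genes, among them Cdc25c, Cdkn1b, Id2, Gapdh, Dkk2, Ctnnb1, Col12a1, Axin2, Hsp90aa1, Bag3 and Dusp4, were chosen after their values were seen. Some genes that these rules name are not reported here. The comparison and the lists were chosen with earlier results of these data known. Coordinates and overlaps come from GENCODE M21 and promoter letters from RefSeq, both on GRCm38. Exons of Fbxo32, Pde8b and Dusp5 also overlap a gene on the other strand, and those of Top2a a gene on the same strand. Alternatives were other scales, scalings, filters, weights and fits, and leaving out each library.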

Additional observations from a re-analysis of the deposited data

Results flagged for a closer look

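Each result here was picked out because the effect of nutritional stress differed between scrMo cultures and another culture type in a test of the difference itself. Against no morpholino 920 genes had a more positive and 890 a more negative effect under scrMo, and against DkkMo 469 and 144. The values in brackets are the scrMo effect minus the other effect on the log2 scale, and each passed an adjusted p below 0.05 and a 1.5-fold difference.

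Against no morpholino, the more positive effects under scrMo among the named genes were those of Cd53 (0.80), Slc40a1 (0.98), Gask1b (1.77), Mki67 (1.03), Top2a (1.23), S100a4 (0.86), C3 (2.30), Ifit3b (2.58), Oas2 (2.48) and Gbp9 (2.43). The more negative ones were those of Hspa1b (-1.50), Hspb1 (-1.78), Hsph1 (-1.93), Dnaja1 (-1.20), Csn3 (-0.88), Dnaja4 (-0.82), Il1rl1 (-1.17), Pde8b (-2.68), Prl2c3 (-2.52), Dusp5 (-2.38) and Bmp7 (-2.24).

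Against DkkMo, the more positive effects were those of Slc40a1 (0.77), Gask1b (0.84), Cxcl1 (1.09), Ccl2 (0.83), Mki67 (0.66), Top2a (0.95), S100a4 (0.71), C3 (1.62), Txnip (2.51), Cxcl5 (2.41), Acta2 (2.37) and Igfbp7 (2.20). The more negative ones were those of Hspa1b (-1.91), Hspb1 (-1.43), Hsph1 (-1.47), Dnaja1 (-0.76), Csn3 (-0.92), Dnaja4 (-0.87), Sema7a (-0.63) and Cryab (-1.63). Both sets of differences use the same scrMo libraries, and the source of these differences was not tested.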

How the results depend on the processing

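Counts are given as genes higher and then lower. They moved by over 1.5 times under the settings that change the scale or the fold limit. With voom on the recovered reads they were 2272 and 2214 for stress under scrMo, 2491 and 1751 for the difference from NT and 996 and 505 for the difference from DkkMo, and with log2 of the normalized count plus 1 2266 and 2211 for stress under scrMo, 2497 and 1723 for the difference from NT and 1038 and 515 for the difference from DkkMo. With no fold limit they were 4636 and 5108 for stress under scrMo, 3773 and 3839 for the difference from NT and 2194 and 1479 for the difference from DkkMo, and over 2-fold 157 and 316 for stress under scrMo, 253 and 165 for the difference from NT and 100 and 24 for the difference from DkkMo. With only genes above the median gene, fewer genes being tested, they were 487 and 709 for stress under scrMo, 478 and 740 for the difference from NT and 286 and 108 for the difference from DkkMo. With libraries centred on their medians they were 947 and 845 for stress under scrMo, 675 and 1272 for the difference from NT and 318 and 281 for the difference from DkkMo. Quantile normalization, array weights, no trend, only the groups compared and the last 14 rows included left every count within 1.5 times. Leaving out 1 library gave 636 to 797 higher and 926 to 1151 lower for stress under scrMo, 894 to 998 higher and 809 to 963 lower for the difference from NT and 338 to 548 higher and 125 to 188 lower for the difference from DkkMo.

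List medians moved by more than the spread between libraries as follows, the cause not being tested. Voom gave cholesterol -0.29, fatty acid synthesis -0.15, MondoA 0.24, lysosome 0.11, FoxO 0.50, mitosis -2.82, DNA replication -1.06, mitochondrial rRNA and tRNA 1.85, ribosome biogenesis -0.49, chemokines -1.01, NF-kB -0.80, osteoblast -0.17, chondrocyte -0.30, Wnt 0.48, aldehyde dehydrogenases -0.17 and leukocyte -0.17. The log2 scale with 1 added gave cholesterol -0.29, fatty acid synthesis -0.15, MondoA 0.24, lysosome 0.11, FoxO 0.50, mitosis -2.81, DNA replication -1.06, mitochondrial protein-coding 0.68, mitochondrial rRNA and tRNA 1.85, ribosome biogenesis -0.49, chemokines -1.01, NF-kB -0.80, osteoblast -0.17, chondrocyte -0.30, Wnt 0.47, aldehyde dehydrogenases -0.17 and leukocyte -0.18. Centring gave cholesterol -0.11, fatty acid synthesis -0.046, lysosome 0.16, mitosis -1.37, ribosome biogenesis -0.36, osteoblast -0.045, SRF and YAP -0.27, redox -0.075, aldehyde dehydrogenases -0.047 and leukocyte 0.068. Quantile normalization gave cholesterol -0.11, fatty acid synthesis -0.056, ATF4 -0.23, lysosome 0.15, SRF and YAP -0.30, redox -0.047 and aldehyde dehydrogenases -0.079. Only genes above the median gene gave cholesterol -0.27, lysosome 0.11, mitochondrial rRNA and tRNA 1.76, chemokines -2.03, osteoblast -0.18, chondrocyte -0.078, Wnt 0.14, aldehyde dehydrogenases -0.19 and leukocyte 0.30. Array weights gave fatty acid synthesis -0.071, mitosis -1.30, mitochondrial protein-coding 0.72, SRF and YAP -0.25 and leukocyte 0.065. Leaving out 1 library moved fatty acid synthesis (-0.16 to -0.095), lysosome (0.072 to 0.11), mitosis (-1.51 to -1.38), mitochondrial protein-coding (0.52 to 0.77), ribosome biogenesis (-0.49 to -0.41), SRF and YAP (-0.39 to -0.24), redox (-0.21 to -0.12), aldehyde dehydrogenases (-0.13 to -0.076) and leukocyte (-0.030 to 0.090). In all 467 list medians under an alternative stayed within the spread, and 77 moved. The larger of a list's counts of rises and falls changed side in 1 of 592 list counts under an alternative (cell cycle inhibitors, 2 higher and 1 lower, with only genes above the median gene), and became a tie or left one in 25.

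Of the values of single genes under an alternative, 2496 kept their side of the threshold, 30 lost the call and 2 gained one. The sign turned for genes whose difference was near 0, with array weights for Ifit3b (0.00025), Pde8b (-0.073) and Prl2c3 (-0.076), without the first stress library for Pde8b (-0.036) and Prl2c3 (-0.049), and for Prl2c3 without the first (-0.0094) or the third (-0.027) log-phase library. Leaving out 1 library gave Pde8b -0.036 to 0.10 and Prl2c3 -0.049 to 0.066. Same-numbered log-phase and stress scrMo libraries had correlations of 0.060, 0.010 and -0.050 between their deviations. The numbers were thus not taken to pair log-phase with stress libraries. Across genes, log-phase scrMo library 1 had a Spearman correlation of 0.9937 with log-phase DkkMo library 1. That was above its 0.9926 and 0.9921 with scrMo libraries 2 and 3. It was also above the 0.9931 and 0.9935 of DkkMo library 1 with DkkMo libraries 2 and 3. Log-phase scrMo and DkkMo libraries numbered 2 (0.9842) or 3 (0.9929) correlated less than libraries 2 and 3 within scrMo (0.9960) or DkkMo (0.9954). The source was not tested. With the replicate number as a block the counts for stress under scrMo were 726 higher and 1040 lower, and against DkkMo 471 and 145. For the difference from NT, where 2 stressed NT libraries carry the same number, a block added after seeing the data gave 911 and 877. Libraries held 25.9 M reads or more, the effect of depth was not tested, and the deposited scale compresses fold changes of genes with few reads.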

Other observations

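The gene groups that follow were chosen after the data had been seen and carry no test of their own. Of 18 genes for intermediate filaments, S100 proteins and annexins 0 rose and 12 fell, with a median of -1.30. Vim, the mesenchymal filament protein vimentin, measured 125331, 102729 and 101378 normalized counts in log phase and 22593, 24569 and 24564 under stress, and the nuclear lamin gene Lmna 15029, 10599.8 and 10848 and 3068, 3516 and 3455. Annexin A1 (Anxa1) fell by 1.51 and S100a6 by 1.53, while Nes (-0.22) was not called. Of 18 tubulins and tubulin chaperones 0 rose and 5 fell, the falls being tubulins such as Tubb6 (-0.90) and Tuba1c (-0.77), and of 31 proteasome genes 0 rose and 6 fell, with a median of -0.35. Among cell contact genes 2 rose and 2 fell of 17. Cd24a went from 929.6, 957 and 875 to 3804, 3597 and 3438 and Alcam from 288, 465 and 385 to 1492, 1517 and 1495, while the hyaluronan receptor Cd44 fell from 14363, 11401 and 14847 to 3839.5, 3786 and 3645.

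Of 10 iron-handling genes 1 rose and 2 fell. Beside the rise of the exporter Slc40a1, the importer Slc11a2 fell from 10087, 8713 and 9341 to 3609, 3971 and 4049 and the transferrin receptor Tfrc from 2781, 3638 and 3604 to 1734, 1765 and 1830.0. Of 15 circadian clock genes 3 rose and 1 fell, the heme-binding repressor Nr1d1 falling by 1.02 while its opponent Rora rose by 0.83 and its relative Nr1d2 by 0.73. A total of 30 genes rose under scrMo, were more positive there than in both other culture types and were called in neither of those. They include mt-Rnr1, mt-Rnr2, the transcription factor Foxc1 (1.14 ± 0.087, against 0.46 and 0.20), the semaphorin and VEGF receptor Nrp1 (1.02 ± 0.086, against -0.45 and -0.012) and the small GTPase Rhob (0.96 ± 0.078). The 11 genes of the same kind that fell include the Hippo-pathway scaffold Wwc1 (-1.16 ± 0.065) and the glutathione-degrading enzyme Chac1 (-0.93 ± 0.098). Both comparisons behind these counts use the same scrMo libraries. A rise under scrMo met a fall without morpholino in 17 genes, Insig1 (1.40 and -0.96), Stat2 (0.60 and -1.31) and Col12a1 among them, and a fall met a rise in 6, including the urokinase receptor Plaur (-1.19 and 0.84).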
